A study of Mus musculus with 8 samples.

Results

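Meiotic recombination begins with programmed DNA double-strand breaks, which are repaired on the homologous chromosome and in part mature into crossovers. The messenger RNAs of 40 genes of this pathway, chosen by name from the 55421 genes of the deposited count table, were followed in cultured mouse spermatogonia. Each gene was placed in 1 of 4 steps. Break formation and placement held 8 genes, strand exchange by factors best known from meiosis 8, strand exchange and repair by factors also used in dividing somatic cells 12, and crossover formation or its restraint 12. All 40 names matched a row of the table, and 39 passed the filter on low counts. Gene positions are those of GENCODE M21 on GRCm38.

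The cultures were primary undifferentiated spermatogonia, called spermatogonial stem cell (SSC) cultures, which had been started from C57BL/6XDBA/2 pups aged 6 days and were grown on irradiated mouse embryonic fibroblast (MEF) feeder cells. After 2 days, 4 treatments were compared, with 2 libraries each. Veh cultures received vehicle in complete SSC medium, RA cultures received retinoic acid in complete SSC medium, NR cultures received nutrient restriction medium made of 10% complete SSC medium and 90% Earle's balanced salt solution (EBSS), and NRRA cultures received retinoic acid in that restriction medium. No transgene or deletion is named for any group. The restriction medium also thins the growth factors GDNF and bFGF, so that lack of nutrients and lack of growth factors cannot be told apart.

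As background, SPO11 cuts DNA together with partner proteins that gather on the chromosome axis, and PRDM9 marks the sites where cuts are made. The cut ends are trimmed to single strands, coated by RPA with MEIOB and SPATA22, and then loaded with recombinases such as DMC1, which invade the homologous chromosome. MSH4, MSH5 and their helpers protect some of these joints until they become crossovers, whereas helicases such as BLM and FANCM take others apart. In the testis, RA induces *Stra8*, a transcription factor gene that is needed for this program.

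Total counts ranged from 19261333 to 30023585 per library, and a level of 1 CPM (the count scaled to a common library size, with TMM factors) stood for about 19.2 to 31.2 reads. Libraries of the same condition were not copies of each other, since their counts differed beyond counting noise in all 4 conditions, and all 8 were used. The Veh libraries lay farthest apart, with a mean chi-square per gene of 3.93, against 2.12 in RA, 1.58 in NR and 1.73 in NRRA. Pooled over the conditions, the spread beyond counting noise was small, with a common biological coefficient of variation of 3.35%. The small p-values below rest on that spread between 2 libraries per condition. Tests used the quasi-likelihood F test of edgeR in a single fit of all 8 libraries over 20477 genes, and calls needed a Benjamini-Hochberg adjusted p under 0.05. The median log2 fold change of all genes tested lay between -0.02 and 0.03 in every comparison. Summed germ cell marker levels were 930.3 to 943.7 CPM in Veh, 1021 to 1079 in RA, 1077 to 1101 under NR and 1131 to 1146 under NRRA. Of the 8 single markers, 3 rose and 4 fell in NRRA against Veh, so the sum does not stand for each marker. Summed markers of the MEF feeder were 20320 to 20460 CPM in Veh, 16060 to 17310 in RA, 33000 to 34490 under NR and 26220 to 27050 under NRRA. The summed RNA of these markers was thus abundant in every library. Single markers differed, and *S100a4* lay between 0.465 and 3.22 CPM. In these bulk libraries, fewer cells of a type and less RNA per cell cannot be told apart, and the part of the feeder in the changes of the recombination genes was not tested. *Stra8* stood at 1.14 and 1.51 CPM in Veh, 631.6 and 653 with RA, 14.6 and 14.3 under NR, and 917.2 and 957.5 under NRRA.

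In both conditions with RA, more recombination genes rose than fell, and in NR about as many fell as rose. Compared with Veh, 24 of the 39 genes tested (61.5%) rose in NRRA and 5 (12.8%) fell, against 30.1% of all genes tested called higher and 28.7% called lower. In RA alone 16 (41%) rose and 4 (10.3%) fell, against 19.8% and 23.4% of all genes. In NR alone 9 (23.1%) rose and 10 (25.6%) fell, against 21.7% and 22.2% of all genes, so the shares of the recombination genes were near the background there. Between the RA conditions, NRRA exceeded RA for 14 genes and fell short of it for 2, where 20.9% and 19.4% of all genes were called. Adding RA to the restriction medium, the comparison of NRRA with NR, raised 23 genes and lowered 2, against 21.3% and 22.1% of all genes. The comparisons share control libraries and are therefore given side by side, without a test of one against another. Across the 39 genes, the median log2 fold change was 0.12 in RA, 0.01 under NR and 0.33 under NRRA against Veh, 0.16 in NRRA against RA and 0.24 in NRRA against NR. After correction for GC content and gene length, the NRRA median against Veh was 0.18 (0.00 over all genes), and with scaling by library totals alone the RA median was 0.23 and the NRRA median 0.44, where the medians of all genes were 0.08 and 0.14.

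Large changes were few. A rise of at least 2-fold with an adjusted p under 0.05 was found for *Mei4*, *Prdm9* and *Hfm1* in RA, for *Hfm1* in NR, for *Mei1*, *Mei4*, *Prdm9*, *Dmc1*, *Meiob* and *Hfm1* in NRRA against Veh, and for *Mei1*, *Prdm9* and *Dmc1* in NRRA against NR. These are 3, 1, 6 and 3 of 39 genes, where 4.74%, 5.33%, 9.91% and 4.56% of all genes passed the same rule. In NR 3 genes passed it without the second Veh library and 2 without the first NR library, and in RA 2 passed it without the first Veh library or without the second RA library. After the correction for GC content and length, 2 passed it in RA and 4 in NRRA against Veh. In NRRA against RA, where 4.61% of all genes rose that far, the highest log2 fold change among the recombination genes was 0.95, and *Mei1* passed the rule without the first NRRA library. The lowest log2 fold change of a recombination gene against Veh in any treatment was -0.71, whereas 2.75% of all genes in RA, 2.96% under NR and 6.02% under NRRA fell by at least 2-fold. The lowest values were -0.31 in NRRA against RA and -0.48 in NRRA against NR, where 3.68% and 4.14% of all genes fell that far.

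**Figure D1:**
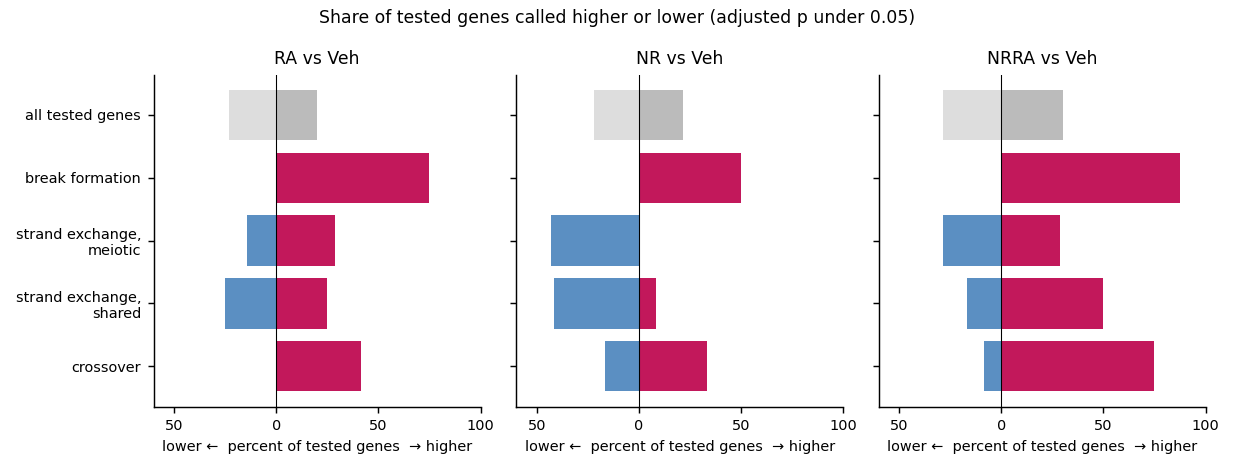
Percent of tested genes called higher (to the right) or lower (to the left) against Veh at an adjusted p under 0.05, for RA, NR and NRRA, with all 20477 genes in grey and the 4 steps of the pathway in colour. In NRRA the break formation and crossover steps show 87.5% and 75% of their tested genes higher, whereas among the meiotic strand exchange factors as many are lower as higher, 2 each. Over all genes in NRRA, 30.1% are higher and 28.7% lower.

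By step, break formation and crossover genes mostly rose under NRRA. Against Veh, 7 of 8 break formation genes rose in NRRA and none fell (median log2 fold change 0.82), and DESeq2 called 6 of them higher. Of the 12 crossover genes, 9 rose and 1 fell (median 0.40). Of the 12 genes shared with somatic repair, 6 rose and 2 fell (median 0.12). Of the 7 tested meiotic strand exchange factors, 2 rose and 2 fell, and the median was -0.15. Over all genes tested, 30.1% were called higher and 28.7% lower. The shares of the meiotic strand exchange factors (28.6% each way) were therefore near the background. No test of one step against another was made, so these counts describe the steps only. The NRRA mean was the highest of the 4 condition means for 27 of the 39 genes, and for 20 of them both NRRA libraries lay above the other 6. These 2 counts were not made over all genes tested, so they do not show a trait particular to the recombination genes.

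**Figure D2:**
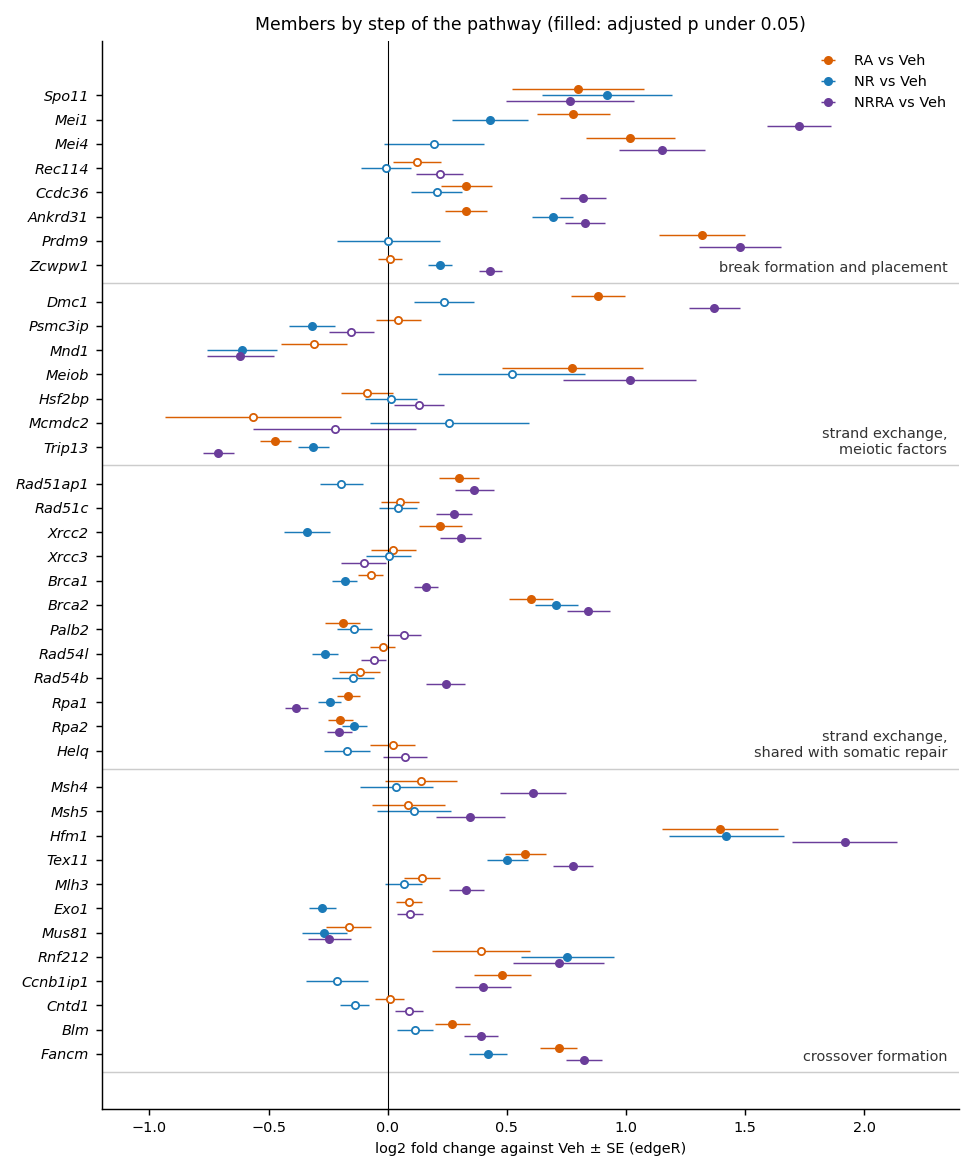
Log2 fold change ± SE of each tested gene against Veh in RA, NR and NRRA, grouped by step, with filled points for an adjusted p under 0.05. *Hfm1* and *Mei1* reach the highest NRRA values (1.92 and 1.73), and *Trip13* and *Mnd1* the lowest (-0.71 and -0.62).

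In the break formation step, *Spo11* (chr2:172977700-172993576, plus strand) encodes the topoisomerase-like protein that makes the cut. *Spo11* was measured at 1.19 and 1.41 CPM in Veh, 2.55 and 2.05 with RA, 2.31 and 2.58 under NR, and 2.75 and 1.70 under NRRA. Both Veh libraries were the lowest of the 8, and the 3 treatments overlapped with each other. Against Veh, the log2 fold change of RA was 0.80 ± 0.28 (adjusted p = 0.0214), that of NR 0.92 ± 0.27 (adjusted p = 0.00742) and that of NRRA 0.77 ± 0.27 (adjusted p = 0.017). Between NRRA and RA the difference was -0.04 ± 0.23 and was not called (adjusted p = 0.923). *Spo11* had only 24 to 77 reads per library, and its NRRA value fell to 0.39 (adjusted p = 0.298) without the first NRRA library and to 0.65 (adjusted p = 0.108) without the first Veh library. Without that Veh library the RA and NR calls were lost too (adjusted p = 0.114 and 0.0542), the RA call was lost without the first RA library (0.117), and the NR call without the second NR library (0.0627). DESeq2 gave adjusted p = 0.0741 for RA and 0.0721 for NRRA.

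*Mei1* (chr15:82069996-82126814, plus strand), whose protein is needed for meiotic breaks and acts with MEI4 and REC114, was highest under NRRA. Its level was 3.81 and 3.96 CPM in Veh, 6.78 and 6.59 with RA, 4.77 and 5.62 under NR, and 11.8 and 13.9 under NRRA. The NRRA libraries stood above all others, the RA libraries came next and the Veh libraries were the lowest. *Mei1* rose 3.31-fold in NRRA against Veh (log2 1.73 ± 0.13, adjusted p = 1.79e-11), 1.93-fold against RA (log2 0.95 ± 0.11, adjusted p = 1.25e-07) and 2.46-fold against NR (log2 1.30 ± 0.12, adjusted p = 1.26e-09). Against Veh it also rose in RA (log2 0.78 ± 0.15, adjusted p = 0.000162) and, by less, in NR (log2 0.43 ± 0.16, adjusted p = 0.0317). The NR call was lost without either Veh library (adjusted p = 0.101 and 0.0583) or without the second NR library (0.254), and DESeq2 gave 0.105.

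*Mei4* (chr9:81863670-82206007, plus strand), a partner of REC114 on the axis, was detected at 2.18 and 2.397 CPM in Veh, 4.38 and 4.82 with RA, 2.99 and 2.32 under NR, and 4.82 and 5.33 under NRRA. The libraries with RA lay above those without, in either medium. It rose 2.02-fold in RA (log2 1.02 ± 0.19, adjusted p = 7.49e-05) and 2.22-fold in NRRA (log2 1.15 ± 0.18, adjusted p = 3.87e-06) against Veh, and the difference between NRRA and RA was not called (log2 0.13 ± 0.15, adjusted p = 0.509).

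*Prdm9* (chr17:15543079-15564354, minus strand), the histone methyltransferase that sets the position of breaks, was also higher with RA than without it. It was found at 2.18 and 3.13 CPM in Veh, 6.83 and 6.42 with RA, 2.26 and 2.96 under NR, and 7.97 and 6.81 under NRRA. Libraries with RA did not overlap those without, and the values of NR lay within the range of Veh. The fold change against Veh was 2.49 in RA (log2 1.32 ± 0.18, adjusted p = 1.29e-06), 1.00 in NR (log2 0.00 ± 0.22, adjusted p = 0.992) and 2.78 in NRRA (log2 1.48 ± 0.17, adjusted p = 3.97e-08). NRRA exceeded NR 2.78-fold (adjusted p = 3.73e-08), and NRRA and RA overlapped (log2 0.16 ± 0.14, adjusted p = 0.383).

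Values of the recombination genes named from here on, other than *Dmc1*, *Meiob* and *Hfm1*, were chosen after they were seen. *Ccdc36*, which encodes the axis protein IHO1, rose in RA (log2 0.33 ± 0.11, adjusted p = 0.0132) and further in NRRA (log2 0.82 ± 0.10, adjusted p = 6.03e-08), from 9.54 to 10.4 CPM in Veh to 17.1 to 18.1 CPM in NRRA. *Ankrd31*, whose protein binds REC114 and helps to place breaks, rose in each treatment, with log2 fold changes of 0.33 ± 0.09 in RA, 0.69 ± 0.09 under NR and 0.83 ± 0.08 under NRRA. *Zcwpw1*, a reader of the histone marks that PRDM9 writes, was level in RA (log2 0.01 ± 0.05, adjusted p = 0.888) and rose in NR (log2 0.22 ± 0.05) and NRRA (log2 0.43 ± 0.05). After correction for GC content and length of the genes, *Zcwpw1* came out lower in RA instead (log2 -0.20, adjusted p = 0.000385) and lost its NR call (log2 0.08, adjusted p = 0.129). The RA calls of *Ccdc36* and *Ankrd31* were lost without the second RA library (adjusted p = 0.228 and 0.308), the former also without the second Veh library (0.0651). *Rec114* was not called in any comparison, though it passed in NRRA against Veh (log2 0.31, adjusted p = 0.0241) without the first NRRA library, and 26.9% of its exon bases overlap *Nptn* on the other strand.

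Per kilobase of exon, the genes of this step differed widely in level. In Veh, *Zcwpw1* stood at 14.8 and *Rec114* at 10.8 CPM per kb, whereas *Spo11*, *Mei4*, *Prdm9* and *Mei1* stood at 0.331, 0.555, 0.616 and 0.82 CPM per kb. In NRRA these 4 reached 0.568, 1.23, 1.71 and 2.71 CPM per kb, so they were still below *Zcwpw1* (19.9 CPM per kb).

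**Figure D3:**
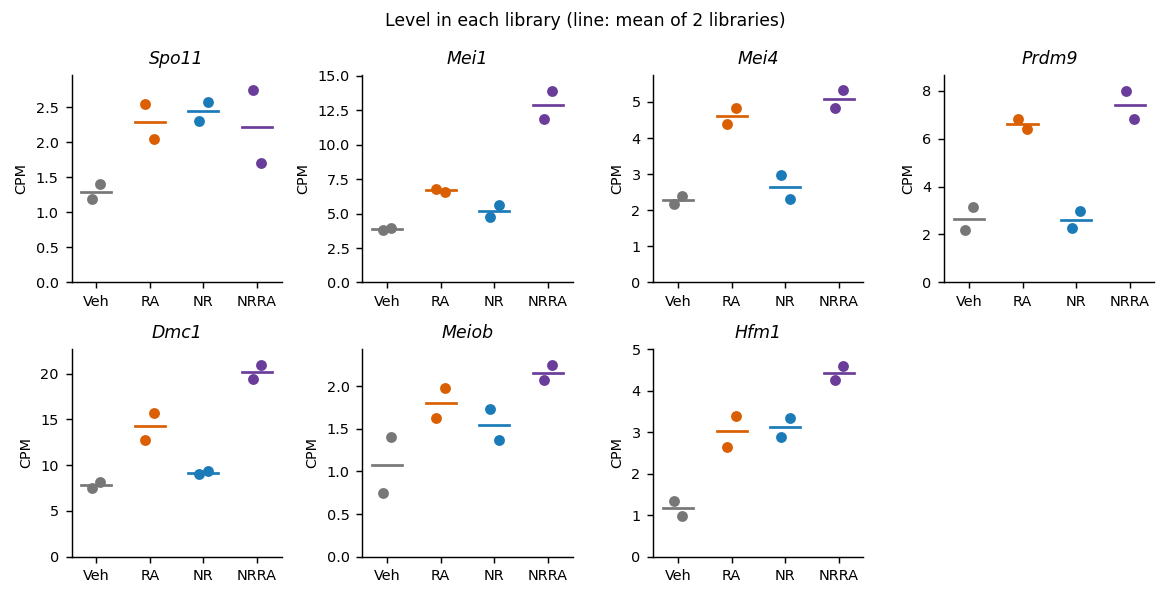
CPM in each of the 8 libraries for the 7 genes with the fullest values, as points by condition with a line at the mean of the 2 libraries and an axis that starts at 0. *Mei1* and *Dmc1* stand highest in NRRA, *Prdm9* and *Mei4* are high in RA and NRRA alike, and *Spo11* is lowest in Veh with the other conditions overlapping.

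Among the meiotic factors of strand exchange, *Dmc1* (chr15:79561497-79605109, minus strand), which encodes the meiosis-specific recombinase, rose most in NRRA. It was measured at 7.48 and 8.18 CPM in Veh, 12.8 and 15.7 with RA, 9.06 and 9.34 under NR, and 19.5 and 20.96 under NRRA. The 4 conditions did not overlap, and NRRA was the highest. *Dmc1* rose 2.59-fold in NRRA against Veh (log2 1.37 ± 0.11, adjusted p = 2.34e-11), 1.40-fold against RA (log2 0.49 ± 0.09, adjusted p = 9.56e-05) and 2.20-fold against NR (log2 1.14 ± 0.10, adjusted p = 4.93e-10). RA alone raised it 1.84-fold (log2 0.88 ± 0.12, adjusted p = 6.34e-07), whereas the difference between NR and Veh was not called (log2 0.24 ± 0.13, adjusted p = 0.133).

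*Meiob* (chr17:24804289-24839788, plus strand), whose product binds single-stranded DNA in a complex with SPATA22, was a low gene with 0.743 and 1.41 CPM in Veh, 1.63 and 1.98 with RA, 1.73 and 1.37 under NR, and 2.07 and 2.25 under NRRA. The NRRA libraries were the highest and the first Veh library was the lowest. It rose 2.02-fold in NRRA against Veh (log2 1.02 ± 0.28, adjusted p = 0.00274), a call that was lost without the first Veh library (log2 0.62, adjusted p = 0.101). The RA call (log2 0.78 ± 0.30, adjusted p = 0.0361) was also lost without that library (0.383) or without the second RA library (0.248). In NR the value was 0.52 ± 0.31 (adjusted p = 0.181), and without the second Veh library it passed the threshold (log2 1.052, adjusted p = 0.0335), as the RA and NRRA values then rose to 1.31 and 1.53 (adjusted p = 0.00594 and 0.000587). *Spata22* had at most 5 reads in any library and was not tested, and 80.5% of its exon bases are shared with *Gm49340* on the same strand, which had 0 reads in all 8 libraries.

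Other genes of this step went down or were not called. *Trip13*, an AAA+ ATPase that remodels HORMA domain proteins in meiosis and in the mitotic checkpoint, fell from 45.2 and 48.7 CPM in Veh to 35.3 and 32.6 with RA, 37.9 and 37.7 under NR, and 29.2 and 28.2 under NRRA. No treated library reached the Veh range, and the NRRA libraries were the lowest. The log2 fold change was -0.47 ± 0.07 in RA, -0.31 ± 0.06 under NR and -0.71 ± 0.07 under NRRA (adjusted p = 1.62e-06, 0.000276 and 4.96e-10). *Mnd1*, which forms with the product of *Psmc3ip* a complex that helps DMC1, fell in NR (log2 -0.61 ± 0.15, adjusted p = 0.00131) and in NRRA (log2 -0.62 ± 0.14, adjusted p = 0.000481). *Psmc3ip* itself fell in NR (log2 -0.32 ± 0.10, adjusted p = 0.01), with the call lost without the first Veh library (log2 -0.13, adjusted p = 0.388) or either NR library (0.0902 and 0.0519), and 21.2% of its exon bases overlap *Mlx* on the other strand. *Hsf2bp*, whose product works with BRCA2 in meiosis, and *Mcmdc2*, a gene with 12 to 25 reads per library, were not called in any comparison.

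Genes of strand exchange that are shared with somatic repair moved by less than 2-fold throughout. *Brca2*, which encodes a loader of DMC1, rose most, from 59.3 and 60.4 CPM in Veh to 74.9 and 105.1 with RA, 99.3 and 96.4 under NR, and 113.1 and 101.6 under NRRA. All treated libraries lay above Veh, and the RA libraries were far apart. Its log2 fold change was 0.60 ± 0.09 in RA, 0.71 ± 0.09 under NR and 0.84 ± 0.09 under NRRA (adjusted p = 6.37e-06, 4.54e-07 and 8.71e-09). The RA value was 0.32 (adjusted p = 0.00177) without the second RA library. Its value in NRRA against RA (log2 0.24 ± 0.08, adjusted p = 0.0256) fell to 0.03 (adjusted p = 0.787) without the first RA library, and the call was also lost without the first NRRA library (0.258) and without the first or the second NR library (0.0628 and 0.0641). *Rad51ap1*, which encodes an accessory factor of strand exchange, rose in RA (log2 0.30 ± 0.09) and NRRA (log2 0.36 ± 0.08). *Rad51c*, a gene of homologous recombination repair, rose in NRRA (log2 0.28 ± 0.08, adjusted p = 0.00295) and was not called in RA or NR. *Rpa1* and *Rpa2*, subunits of the general single-strand binding protein, fell in every comparison with Veh, with log2 fold changes of -0.38 ± 0.05 and -0.20 ± 0.05 in NRRA. The RA call of *Rpa1* was lost without the first RA library (adjusted p = 0.0595), and the NR call of *Rpa2* without the second Veh library (0.0936) or either NR library (0.373 and 0.0656). *Xrcc3*, another such gene, was not called in any comparison, and *Helq*, a helicase gene, was called only in NRRA against NR (log2 0.24 ± 0.09, adjusted p = 0.0315), a call lost without either NR library (0.147 and 0.154) or without the second NRRA library (log2 0.11, adjusted p = 0.463).

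In the crossover step, *Hfm1* (chr5:106840192-106926321, minus strand), a helicase gene of the group that stabilizes crossover intermediates, had the largest rise of all the recombination genes. Its level was 1.34 and 0.99 CPM in Veh, 2.65 and 3.40 with RA, 2.89 and 3.34 under NR, and 4.25 and 4.59 under NRRA. The Veh values rest on only 27 and 19 reads. RA and NR overlapped, above Veh and below NRRA. Against Veh it rose 2.63-fold in RA (log2 1.40 ± 0.24, adjusted p = 3.93e-05), 2.68-fold in NR (log2 1.42 ± 0.24, adjusted p = 2.83e-05) and 3.78-fold in NRRA (log2 1.92 ± 0.22, adjusted p = 3.52e-08). NRRA exceeded RA by 0.52 ± 0.17 (adjusted p = 0.0157) and NR by 0.50 ± 0.17 (adjusted p = 0.0205) on the log2 scale. The former call was lost without the first RA library (adjusted p = 0.134) or the second NRRA library (0.104), and the latter without the first NR library (0.16) or the second NRRA library (0.121).

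*Tex11*, an X-linked gene of the same group, was the most abundant of this step per kilobase in Veh (11.6 CPM per kb) and rose in every treatment, with log2 fold changes of 0.58 ± 0.09 in RA, 0.50 ± 0.09 under NR and 0.78 ± 0.08 under NRRA. Its Veh libraries were far apart, at 35.2 and 48.9 CPM. Without the first of them the RA value was 0.38 (adjusted p = 7.81e-06) and the NR value 0.30 (adjusted p = 0.000235), and without the second the NR value was 0.77 (adjusted p = 1.04e-11). *Msh4* rose in NRRA (log2 0.61 ± 0.14, adjusted p = 0.000468) and was not called in RA or NR against Veh. Its partner *Msh5* gave 0.35 ± 0.15 in NRRA (adjusted p = 0.0434), which was not called without either Veh library (0.11 and 0.104) or the second NRRA library (0.232). *Mlh3*, which encodes a subunit of the nuclease that resolves joints into crossovers, rose in NRRA (log2 0.33 ± 0.07, adjusted p = 0.00033). The ubiquitin or SUMO ligase genes of crossover sites were called in different treatments. *Ccnb1ip1*, which encodes HEI10, rose in RA (log2 0.48 ± 0.12, adjusted p = 0.00181) and NRRA (log2 0.40 ± 0.12, adjusted p = 0.00464), whereas NR gave -0.21 ± 0.13 (adjusted p = 0.201). Its NRRA call was lost without the second Veh library (0.0682) or the second NRRA library (0.0577). *Rnf212* rose in NR (log2 0.75 ± 0.20, adjusted p = 0.00264) and NRRA (log2 0.72 ± 0.19, adjusted p = 0.00209), whereas RA gave 0.39 ± 0.21 (adjusted p = 0.128). The difference between the 2 genes was not tested.

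Helicase genes that take joints apart also rose. *Fancm* rose from 24.5 and 28.7 CPM in Veh to 43.8 and 43.6 with RA, 37.4 and 34.0 under NR, and 44.3 and 49.6 under NRRA, with every treated library above Veh. *Blm* rose in RA (log2 0.27 ± 0.07), a value of 0.16 (adjusted p = 0.0749) without the first Veh library and 0.43 (adjusted p = 7.16e-06) without the second, and in NRRA (log2 0.39 ± 0.07). *Mus81*, which encodes a nuclease of the other crossover route, fell in NR (log2 -0.27 ± 0.09, adjusted p = 0.0245) and NRRA (log2 -0.25 ± 0.09, adjusted p = 0.0237), but without the first Veh library these values were -0.11 and -0.10 and were not called (adjusted p = 0.462 and 0.427). Its NR call was also lost without either NR library (0.148 and 0.0987) and its NRRA call without the first NRRA library (0.164). *Cntd1*, a cyclin-like gene needed for crossover maturation, was called only in NRRA against NR (log2 0.23 ± 0.06, adjusted p = 0.00234, or 0.0506 without the second NRRA library), and 70.2% of its exon bases overlap *Becn1* on the other strand.

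Promoter letters are shown for the members that hold the STRA8 motif and for some that hold an E2F motif, whereas E-boxes were only counted. A match is a description of the letters, not a bound site. RefSeq windows on GRCm38.p6 were at hand for 33 of the 40 genes, and the 250 bases before each start were searched on both strands. Some of these windows lie inside the gene as GENCODE draws it, among them those of *Mei1*, *Rec114*, *Msh4*, *Hfm1* and *Ccnb1ip1*. Such windows may not be the promoter in use, and the counts below include them. The motif of STRA8, CNCCTCAG, was in 4 of 33 genes (12.1%), against 7.4% of the 27025 genes with a window and 8.7% of the 13288 of them that were tested here. The holders were *Prdm9*, *Rad51ap1*, *Msh5* and *Hfm1*, and all 4 rose in NRRA against Veh, as did 15 of the 28 tested genes without it. The E2F motif GCGGGAA, which is common before genes of the cell cycle, was in 8 of 33 genes (24.2%), against 4.4% of all genes with a window and 7.5% of those tested. Of these 8 genes, 5 rose and 1 fell in NRRA against Veh, compared with 14 and 4 of the 24 tested genes without it. The E-box CACGTG was in 3 of 33 genes (9.1%), against 6.9% and 9.4%, and of these 3 genes 0 rose and 1 fell in NRRA against Veh, compared with 19 and 4 of the 29 tested genes without it. In the *Prdm9* window (chr17:15564355-15564604, minus strand), the E2F and STRA8 motifs share a base, and their joint run is in capitals.
Prdm9: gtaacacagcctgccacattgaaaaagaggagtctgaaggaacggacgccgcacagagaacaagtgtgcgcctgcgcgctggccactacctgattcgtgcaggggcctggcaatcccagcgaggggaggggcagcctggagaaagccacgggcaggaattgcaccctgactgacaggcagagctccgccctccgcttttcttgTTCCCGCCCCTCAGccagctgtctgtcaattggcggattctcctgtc

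The STRA8 motifs of the other holders, in capitals, read on the opposite strand in *Msh5* and *Hfm1*, lie before the RefSeq start of *Rad51ap1* (chr6:126939618-126939665, minus strand), *Msh5* (chr17:35046689-35046712, minus strand) and *Hfm1* (chr5:106925941-106925964, minus strand). The *Msh5* and *Hfm1* sites lie inside the gene as GENCODE draws it and are shown with shorter flanks.
Rad51ap1: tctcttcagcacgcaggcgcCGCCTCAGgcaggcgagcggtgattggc
Msh5: cgtcgcggCTGAGGTGacggaaaa
Hfm1: cctgaggcCTGAGGCGcaccgtgc

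The E2F motifs, in capitals, read on the opposite strand in *Fancm* and *Helq*, are shown for *Brca2* (chr5:150522433-150522479, plus strand), *Fancm* (chr12:65075529-65075575, plus strand), *Rnf212* (chr5:108775088-108775134, minus strand) and *Helq* (chr5:100798601-100798646, minus strand), the sites that lie clear of the annotated gene.
Brca2: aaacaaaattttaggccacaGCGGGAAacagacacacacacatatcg
Fancm: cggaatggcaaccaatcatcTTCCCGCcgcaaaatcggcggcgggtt
Rnf212: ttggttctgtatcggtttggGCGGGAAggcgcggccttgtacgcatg
Helq: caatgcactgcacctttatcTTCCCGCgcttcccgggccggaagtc

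The RA response in restriction medium (NRRA against NR, log2) minus that in complete medium (RA against Veh) is called the interaction here, and its difference from 0 was tested in the same fit. It was higher in the restriction medium for 6 of the 39 genes (15.4%) and lower for 2 (5.13%), against 6.37% and 6.58% of all genes. The share called lower was thus near the background. With all 8 libraries no recombination gene had a called interaction of at least 1 on the log2 scale in either direction, as 0.786% and 1.46% of all genes did, but *Hfm1* was called lower by at least that much without the first Veh or the first RA library (log2 -1.18 and -1.04), and *Spo11* without the first NRRA library (log2 -1.33). The 6 genes with the larger response under restriction were *Xrcc2*, *Brca1*, *Palb2*, *Rad54l*, *Rad54b* and *Exo1*, and the 2 with the smaller response were *Brca2* and *Fancm*. Of these 8 genes, 6 belong to strand exchange shared with somatic repair. None of the 8 break formation genes or the 7 meiotic strand exchange factors was called in the edgeR interaction, although 3 break formation genes and 0 meiotic factors had an unadjusted p under 0.05, and DESeq2 called 0 in either step. These counts depended on single libraries. Leaving out 1 library at a time gave 1 to 5 genes higher and 0 to 3 lower, with 1 higher and 1 lower without the first NR library, and DESeq2 called 2 higher and 0 lower.

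*Brca1*, a tumour suppressor gene of homologous recombination, had the smallest adjusted p. Its level was 85.8 and 88.1 CPM in Veh, 84.3 and 81.4 with RA, 79.0 and 74.5 under NR, and 94.97 and 99.3 under NRRA. The NR libraries were the lowest and the NRRA libraries the highest. RA gave -0.07 ± 0.05 in complete medium and 0.34 ± 0.05 in the restriction medium on the log2 scale, and the interaction was 0.41 ± 0.07 (adjusted p = 0.00026). *Rad54b*, a translocase gene, was likewise highest in NRRA, with 23.9 and 27.2 CPM in NRRA against 18.5 to 22.0 in the other 6 libraries, and an interaction of 0.51 ± 0.12 (adjusted p = 0.00413). Of its exon bases, 35.8% are shared with *Fsbp* on the same strand, and the call was lost without the first NR library (adjusted p = 0.0683) or the second NRRA library (0.0507).

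In 5 of the 8 genes the NR mean was the lowest of the 4. *Exo1*, an exonuclease gene of end resection and crossover resolution, was at 63.2 and 66.7 CPM in Veh, 69.1 and 69.0 with RA, 52.6 and 54.7 under NR, and 70.9 and 67.6 under NRRA, so the NR libraries stood below all others. *Xrcc2*, a homologous recombination repair gene, fell in NR (log2 -0.34 ± 0.09, adjusted p = 0.00478, not called without the second Veh library at 0.0932 or the second NR library at 0.102) and stood at 19.5 and 19.8 CPM in NRRA against 13.2 and 12.1 in NR. Its interaction kept its call only without the first Veh library among the 8 left out in turn. A list of 24 S phase genes was read for comparison. In NR, 19 of them (79.2%) fell and 3 (12.5%) rose (median log2 fold change -0.28), against 22.2% and 21.7% of all genes. In NRRA against NR, 13 (54.2%) rose and 2 (8.33%) fell, against 21.3% and 22.1%. The interaction was called positive for 15 (62.5%) and negative for 2 (8.33%) (median 0.24), against 6.37% and 6.58%. In NRRA against Veh, however, 13 (54.2%) fell and 3 (12.5%) rose (median -0.135), against 28.7% and 30.1%. There, 6 of the 12 shared repair genes rose and 2 fell (median 0.12). The part of the S phase genes in the changes of the shared repair genes was not tested.

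*Brca2* and *Fancm* went the other way. *Brca2* responded to RA by 0.60 ± 0.09 in complete medium and by 0.13 ± 0.08 in the restriction medium, an interaction of -0.47 ± 0.13 (adjusted p = 0.0116). Without the second RA library it was -0.19 (adjusted p = 0.259), and without the second NRRA library -0.39 (adjusted p = 0.0859). *Fancm* responded by 0.72 ± 0.08 and 0.40 ± 0.07, an interaction of -0.32 ± 0.11 (adjusted p = 0.0487), which was not called without the first Veh library (adjusted p = 0.136) or without any of 4 further libraries. *Hfm1* (log2 -0.90 ± 0.30, adjusted p = 0.0511) and *Spo11* (log2 -0.96 ± 0.36, adjusted p = 0.0802) gave larger values with wide errors and were not called. *Spo11* passed the threshold without the first NRRA library (adjusted p = 0.0208), and *Hfm1* passed it without the first Veh library (0.035) or the first RA library (0.0294). *Tex11* (log2 -0.30 ± 0.12, adjusted p = 0.0912) passed it without the second Veh library (log2 -0.59, adjusted p = 1.16e-06).

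**Figure D4:**
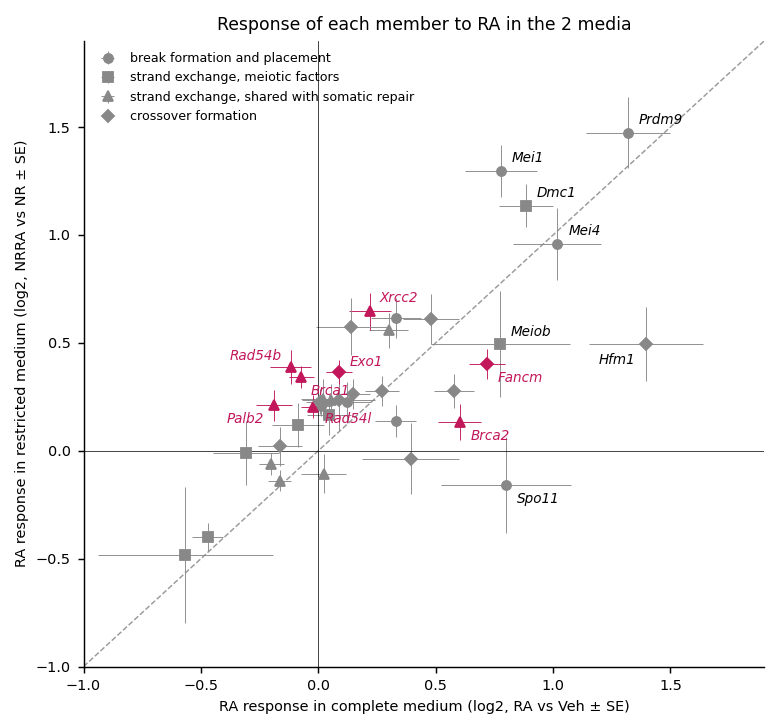
Response of each tested gene to RA in complete medium (x axis) and in restriction medium (y axis), as log2 fold change ± SE, with a dashed line of equal response. The 8 genes with an interaction call are in colour, 6 above the line and *Brca2* and *Fancm* below it, and *Prdm9*, *Mei4* and *Dmc1* lie near or above the line at high values on both axes.

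**Figure D5:**
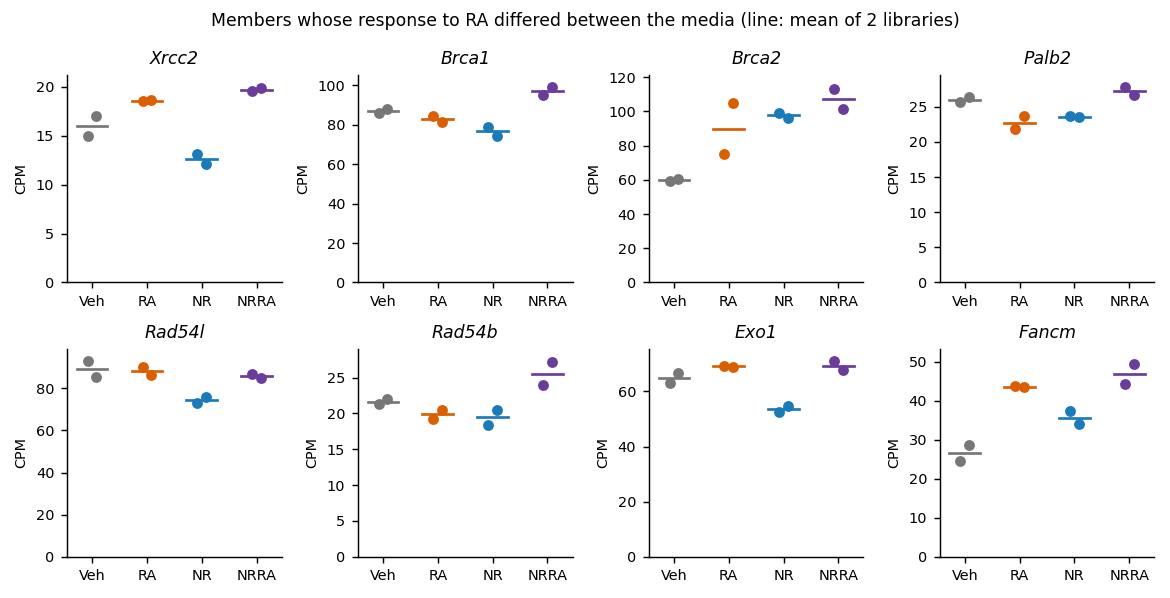
CPM in each of the 8 libraries for the 8 genes with an interaction call, as points by condition with a line at the mean of the 2 libraries and an axis that starts at 0. *Exo1*, *Rad54l* and *Xrcc2* are lowest in NR, *Brca1* and *Rad54b* are highest in NRRA, and the RA libraries of *Brca2* are far apart.

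Other genes of the same pathway, also chosen by name, were read beside these values. A list of 54 further recombination and break response genes, all with enough counts for the test, held 22 that rose and 9 that fell in NRRA against Veh (median log2 fold change 0.12), 24 and 8 in RA (median 0.16), and 13 and 10 in NR (median 0.04). The shares that rose were 40.7%, 44.4% and 24.1%, against 30.1%, 19.8% and 21.7% of all genes. The shares that fell were 16.7%, 14.8% and 18.5%, against 28.7%, 23.4% and 22.2%. In RA the share that rose was near the 41% of the 39 recombination genes above. In NRRA against RA 11 rose (20.4%) and 5 fell (9.26%), against 20.9% and 19.4% of all genes. In NRRA against NR 21 rose (38.9%) and 9 fell (16.7%), against 21.3% and 22.1%. A positive interaction call was made for 2 (3.7%) and a negative one for 3 (5.56%), against 6.37% and 6.58%. Only *Rad51ap2* and *Tex15* of these 54 rose by at least 2-fold in NRRA against Veh, where 9.91% of all genes did. *Rad51ap2* was low in Veh with 0.396 and 0.261 CPM and reached 1.68 and 1.53 with RA, 0.482 and 0.494 under NR, and 2.29 and 2.95 in NRRA (log2 2.98 ± 0.34 against Veh, adjusted p = 2.47e-08). *Tex15*, needed for the loading of recombinases and for transposon silencing in germ cells, was at 123 and 112.7 CPM in Veh, 148.2 and 188.8 with RA, 194.7 and 186.2 under NR, and 288.1 and 255.3 under NRRA (log2 1.204 ± 0.07, adjusted p = 1.53e-13). Its NRRA libraries were the highest and its Veh libraries the lowest.

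Marker lists were read in the same libraries. For comparison, the shares of all genes tested that were called higher against Veh were 19.8% (RA), 21.7% (NR) and 30.1% (NRRA). The shares called lower were 23.4%, 22.2% and 28.7%. Of 8 markers of undifferentiated spermatogonia, 7 fell in RA and 7 fell in NRRA, and their summed level was 728.2 to 786.3 CPM in Veh, 273.7 to 279 in RA, 695.5 to 714.9 under NR and 140.3 to 141.5 under NRRA. Of 8 markers of differentiating spermatogonia, 7 rose and 1 fell in NRRA. RA alone raised 4 of these markers and lowered 2, whereas NR alone raised 5 and lowered 2. Their summed level was nevertheless lowest with NR, at 877.3 to 879 CPM, against 1356 to 1423 for Veh. It reached 2026 to 2099 CPM with RA and 2136 to 2198 CPM with NRRA. Of 12 feeder markers, 10 rose and 1 fell in NR, 7 rose and 5 fell in NRRA, and 8 fell in RA. Of 8 Sertoli cell markers, 5 passed the filter, of which 2 rose and 1 fell in RA and 1 rose and 1 fell in NRRA, and the summed level of the list was 46.2 to 49.2 CPM in Veh, 101.3 to 110.7 with RA, 49.7 to 53.9 in NR and 43.7 to 45.01 in NRRA. Of 8 germ cell markers, 3 rose and 4 fell in NRRA. No gene of these lists was at 0 in all 8 libraries. The part of these shifts in the changes of the recombination genes was not tested.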

How the data were processed

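RNA of 4 conditions with 2 libraries each was analysed, and groups were taken from the sample labels. The authors mapped reads with STAR 2.6.1c to mm10, counted them per gene with featureCounts 1.6.4 (per the labels), and deposited whole-number counts without normalization. Use of the strand in counting is not given in the sources used here, so overlapping genes are uncertain. All 8 count columns matched a sample, and 0 columns had none.

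Counts were filtered with filterByExpr, TMM-scaled and fitted with edgeR 4.0.16 (1 coefficient per condition, 4 residual degrees of freedom) in R 4.3.3. SE is the log2 fold change over the square root of F. DESeq2 1.42.0 (Wald test), other scalings, filters, a replicate block and left-out libraries were alternatives. Coordinates and lengths came from GENCODE M21, and figures from matplotlib 3.10.9. The scripts were tested on simulated data. The study describes the libraries as independent biological replicates, and p-values measure only the spread between these libraries.

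Per-library values, fold changes and p-values were planned for *Spo11*, *Dmc1*, *Prdm9*, *Mei1* and each recombination gene called with a fold of at least 2 in any comparison. Outside them, genes called with a fold of at least 2 in NRRA against Veh could be named. The genes and lists were chosen with earlier results of these data known. Of 55 further pathway symbols listed, 54 matched.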

Additional observations from a re-analysis of the deposited data

Results flagged for a closer look

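The response to RA differed between complete and restriction medium, by edgeR's test of the difference itself, for 8 recombination genes. Of the 39 tested, 15.4% were called higher and 5.13% lower, against 6.37% and 6.58% of all genes. The share called lower was therefore near the background. The interaction on the log2 scale was 0.42 for *Xrcc2* (adjusted p = 0.0224), 0.41 for *Brca1* (0.00026), 0.40 for *Palb2* (0.00901), 0.23 for *Rad54l* (0.0486), 0.51 for *Rad54b* (0.00413), 0.28 for *Exo1* (0.0171), -0.47 for *Brca2* (0.0116) and -0.32 for *Fancm* (0.0487). Of these, *Brca1* kept its call in every alternative except the test against a fold of 1.2 (adjusted p = 0.113). With 1 library left out at a time, the call was lost for *Rad54l* in each case but the second Veh library (adjusted p from 0.0589 without the first RA library to 0.345 without the first NR library), for *Palb2* without either NR library (0.0658 and 0.0732) or the first NRRA library (0.0531), and for *Exo1* without the second Veh (0.0522), the second RA (0.0682), either NR (0.192 and 0.0798) or the first NRRA library (0.113). The groups hold 2 libraries each, too few to look for a library that stands apart from the rest of its group.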

How the results depend on the processing

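Counts of recombination genes called stayed within 1.5 times of those reported in every alternative not named here. With library totals only, 1 gene was lower in RA, 3 in NRRA against Veh and 1 in NRRA against NR. Against a fold of at least 1.2, 8 genes were higher and 1 lower in RA, 1 lower in NR and 3 lower in NRRA against Veh, 5 higher and 0 lower in NRRA against RA, 11 higher and 1 lower in NRRA against NR, and 0 and 0 in the interaction, for which edgeR's usual test gave 16 genes at an unadjusted p under 0.05. DESeq2 called 8 higher in NRRA against RA and 2 higher and 0 lower in the interaction. With only the 2 groups compared 2 genes were lower in RA, after the GC content and length correction 8 were, and without a filter 4 were lower in the interaction. With the correction for GC content and length, *Zcwpw1* in RA turned from 0.01 to -0.198 (log2).

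Leaving out 1 library at a time gave 12 to 17 genes higher and 2 to 4 lower in RA, 7 to 10 and 5 to 10 in NR, 19 to 24 and 4 to 7 in NRRA against Veh, 8 to 14 and 1 to 3 in NRRA against RA, 18 to 23 and 1 to 2 in NRRA against NR, and 1 to 5 and 0 to 3 in the interaction. The 5 lower in NR came without the second NR library, the 2 lower in RA without the first RA library, and the 8 higher in NRRA against RA without the first RA or the first NRRA library.

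The replicate numbers did not pair the libraries (correlations of deviations -0.03 to 0.02). With the replicate number as a block, 15 genes were higher and 4 lower in RA, 24 and 5 in NRRA against Veh, and 5 and 1 in the interaction. Of 117 calls of single genes, 49 kept direction and side of the threshold in every alternative. *Spo11* had 24 to 77 reads per library, *Meiob* 15 to 70 and *Hfm1* 19 to 143, which limits the precision of these genes.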
